A study of Rattus norvegicus with 6 samples.

Results

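The cell cycle genes described here were a list of 46 symbols, of which 45 were among the 17648 rows of the expression matrix from cultured rat spinal cord neurons. They were found by gene symbol, and CCNB2 was the symbol without a row. By function they were divided into 16 S phase genes, 23 G2/M genes (22 with a row) and 7 genes of the G1 phase. S phase genes encode the machinery that copies DNA and the enzymes that make its building blocks. G2/M genes encode the kinases, cyclins, motors and checkpoint proteins of mitosis. G1 genes encode the D-type cyclins, the cyclin-dependent kinases CDK4 and CDK2, and the inhibitors that hold these kinases back.

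A cell that divides passes through these phases in order. In G1, cyclin D with CDK4 inactivates the retinoblastoma protein, which releases E2F transcription factors and turns on the S phase genes. In resting cells the DREAM complex binds CHR elements and keeps G2/M genes silent, and later in the cycle MYB-MuvB with FOXM1 activates them through the same elements. CCAAT boxes, common in the promoters of these genes, are bound by the factor NF-Y. Mature neurons have left the cycle, so in a spinal cord culture S phase and mitotic transcripts can come from glial cells, progenitors and fibroblasts that still divide. Cytarabine (Ara-C), which stops DNA synthesis in dividing cells, is added to such cultures to raise the share of neurons.

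The neurons came from neonatal Sprague-Dawley rats. Ara-C was given at 0.05 mg/mL 24 h after plating to the cultures of both groups, and the injury model was applied after 3 days. The 3 libraries of the Glu + siR-Con group received a control siRNA (a small interfering RNA), and the 3 libraries of the Glu + siR-GAL3 group one against galectin-3. The paper and the design text give both groups glutamate, at 10 μM for 1 h followed by 16 h without it, while the sample labels give saline (0 μM) for siR-Con and call the siR-GAL3 transfection a knockout. If those labels were right, glutamate and siRNA could not be told apart. One siRNA against galectin-3 was used, and no source used here says that the 3 libraries of a group came from separate animals or cultures, so the p-values measure the spread between these libraries, which may be technical.

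The values were derived from FPKM, a fragment count scaled to transcript length and library size, and then corrected by the authors for batch and for differences within groups. Some therefore lie below 0, the depth behind a value is unknown, and no counting error can be given. The correction within groups may also have changed the spread on which every SD, interval and p-value here rests. By how much is not known, and the p-values and intervals may be too small for that reason. Exactly equal values divide the libraries into sets. Set 1 pairs siR-Con replicate 1 with siR-GAL3 replicate 1, and set 2 joins siR-GAL3 replicate 3 to siR-Con replicates 2 and 3. siR-GAL3 replicate 2 has no partner and stood apart on the first principal component, at 27.9 against values from -8.52 to -1.94. The targeted gene, LGALS3, was lower in every siR-GAL3 library (log2 fold change -2.91, 95% interval -5.75 to -0.0654, limma unadjusted p = 0.0462, Benjamini-Hochberg adjusted p = 0.571). The fit set a value of -1.64 in siR-GAL3 replicate 1 to 0, and leaving this replicate out gave a log2 fold change of -1.35.

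The labelled cell type was checked against marker genes. Of the neuronal markers, MAP2 lay between 13.1 and 19.0, ELAVL3 between 7.81 and 11.02 and RBFOX3 (NeuN) between 0.300 and 0.429, and the 13 listed summed to between 33.01 and 40.19. Of the 6 tested, 4 were higher and 2 lower in siR-GAL3. The groups did not overlap for 2 of these 6, STMN2 and SYT1, both higher, against 20.5% of all genes tested. Astrocyte markers (led by GFAP and AQP4) summed to 1077, 993.6 and 937.4 in siR-Con and to 874.9, 831.7 and 810.6 in siR-GAL3, with 8 of 10 tested lower. Within set 1, however, 6 of these 10 were higher in siR-GAL3 replicate 1 than in siR-Con replicate 1. The median difference there was 0.03 on the log2 scale. MBP, a myelin gene of oligodendrocytes, lay between 628.6 and 918.5. Of the 13 neuronal markers listed, 7 had a mean below 1 and were not tested. The astrocyte marker sum, and MBP alone, lay far above the neuronal marker sum in every library. Microglial markers (led by C1QC and C1QB) summed to 111.1, 128.9 and 131.7 in siR-Con and to 162.0, 141.5 and 145.1 in siR-GAL3, and all 11 tested were higher. Fibroblast and meningeal markers (led by COL1A1 and COL3A1) summed to 45.85, 53.51 and 51.07 in siR-Con and to 40.38, 35.44 and 36.43 in siR-GAL3, with 5 of 6 tested lower. Neural progenitor markers (led by FABP7 and VIM) summed to 390.5, 365.6 and 394.6 in siR-Con and to 375.3, 403.2 and 336.3 in siR-GAL3, with a lower fitted mean for all 6 tested and a median log2 fold change of -0.0880, though none had an unadjusted limma p under 0.05. Oligodendrocyte progenitor markers, led by GPR17 and SOX10, summed to between 70.2 and 84.79 in 5 libraries and to 33.97 in siR-GAL3 replicate 2, where GPR17 was given as -7.25. Endothelial markers, led by CDH5 and KDR, summed to between 1.19 and 1.42. An unadjusted limma p under 0.05 was found for 1 of 6 neuronal, 4 of 10 astrocyte, 6 of 11 microglial and 4 of 6 fibroblast markers tested. Over all genes tested the share was 8.66%, and none of these markers had an adjusted p under 0.05. Which of these cells held the cell cycle transcripts was not tested. In such bulk RNA, fewer dividing cells and less of a transcript per dividing cell cannot be told apart.

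The levels of the cell cycle genes were low to moderate. On the FPKM-derived scale, which is per transcript length, the median was 2.40 over the 40 members whose mean reached 1, the minimum for a test, against 3.06 over all 8495 genes that reached it. The most abundant were CDK4, the cyclin D kinase, and the cell cycle inhibitor CDKN1A (p21), with values of 18.1 to 27.1 and 11.5 to 14.3 over the 6 libraries. RRM1, the large subunit of ribonucleotide reductase, led the S phase genes at 10.9 to 13.1, and CDC20, an activator of the anaphase-promoting complex, was the most abundant G2/M gene at 4.36 to 6.47. The remaining 5 S phase genes, GINS2, CDC6, CDT1, CCNE1 and CCNE2, stayed between 0.163 and 0.973 and were not tested. GINS2, CDC6 and CDT1 act at replication origins, CCNE1 and CCNE2 are the E-type cyclins of S phase entry, and each of the 5 had its highest value in siR-GAL3 replicate 2.

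The S phase and G2/M genes differed in their promoters, which is where the regulators named above act. Promoter sequences from RefSeq (assembly GRCr8, 250 bases before to 50 after the start of the transcript) matched 36 of the 46 symbols. An E2F core (TTCGCGC, and also TTGGCGC, further TTCCCGC, and last TTGCCGC, on either strand) was found in 8 of 12 S phase promoters and 4 of 19 G2/M promoters, against 9.52% of the 33469 promoters in the table. A CHR element (TTTGAA or TTTAAA on either strand) was found in 19 of 19 G2/M promoters and 2 of 12 S phase promoters, against 28.3% of all promoters. A CCAAT box (CCAAT on either strand) was found in 16 of 19 G2/M and 7 of 12 S phase promoters, against 37.5%. CHR and CCAAT stood together in 16 of 19 G2/M promoters, none of the S phase promoters and 11.3% of all promoters.

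Within 50 bases of the start, 14 of 19 G2/M promoters held a CHR match, against 8.80% of all promoters. An E2F core lay within 50 bases of the start in 8 of 12 S phase promoters. Its share over all promoters was not computed for this distance, and was 9.52% anywhere in the window. In G2/M promoters the median distance from the start was -43 bases for CHR and -94 bases for CCAAT matches. Matches that overlap were counted separately, CHR and CCAAT matches overlapped in 1 member promoter, and a match is a run of letters and not a measured binding site. Other genes of replication and mitosis divided the same way, with an E2F core in 27 of 37 replication promoters and 9 of 48 mitosis promoters, and a CHR element in 8 of 37 and 36 of 48.

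**Figure D1:**
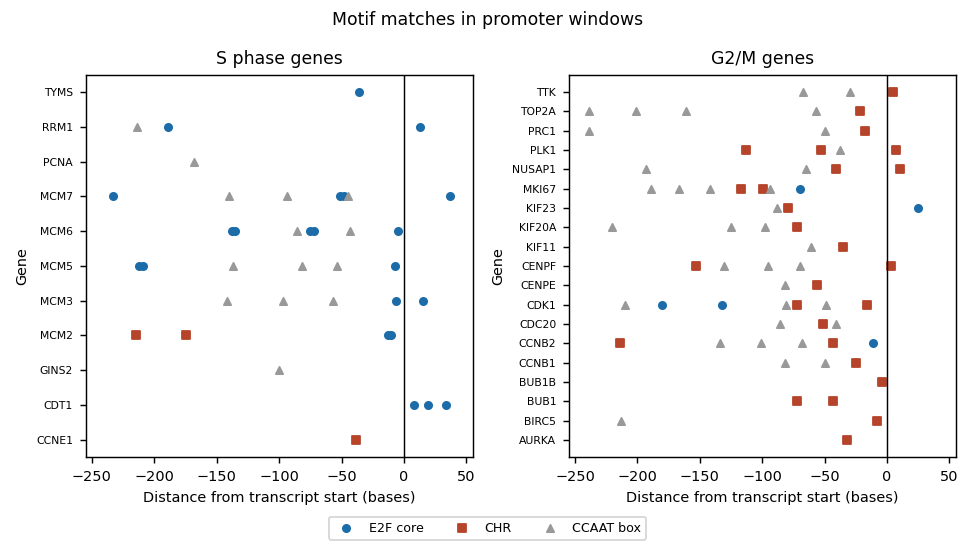
Position of each E2F core, CHR and CCAAT match (horizontal axis, distance from the transcript start in bases, with 0 at the line) in the promoters of S phase and G2/M genes (rows, genes with at least 1 match). CHR matches in the G2/M genes lie between -214 and 10 bases from the start, and all 19 promoters hold one.

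The promoters of 4 genes are printed 5′ to 3′ on the coding strand, from S phase and G2/M genes whose groups did not overlap. In the promoters of TYMS (GRCr8, chr9:120776034-120776333, minus strand) and RRM1 (chr1:166235654-166235953, plus strand), capitals mark E2F cores on either strand, of which TYMS holds 1 and RRM1 holds 2.
TYMS: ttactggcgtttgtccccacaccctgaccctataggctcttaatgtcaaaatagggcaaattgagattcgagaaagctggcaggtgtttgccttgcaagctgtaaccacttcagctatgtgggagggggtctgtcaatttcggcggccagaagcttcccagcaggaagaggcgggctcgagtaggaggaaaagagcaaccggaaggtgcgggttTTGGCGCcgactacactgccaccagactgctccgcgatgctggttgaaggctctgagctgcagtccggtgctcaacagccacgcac
RRM1: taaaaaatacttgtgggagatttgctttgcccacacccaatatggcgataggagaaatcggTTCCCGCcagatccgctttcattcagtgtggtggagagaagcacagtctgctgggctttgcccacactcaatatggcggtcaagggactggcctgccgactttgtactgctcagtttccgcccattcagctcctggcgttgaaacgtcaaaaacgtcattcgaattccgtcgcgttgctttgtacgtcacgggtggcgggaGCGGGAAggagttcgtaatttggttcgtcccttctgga

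In the promoters of BIRC5 (GRCr8, chr10:103571896-103572195, plus strand) and TOP2A (chr10:84473044-84473343, minus strand), capitals mark CHR elements and CCAAT boxes on either strand. Each holds 1 CHR element, and they hold 1 and 4 CCAAT boxes.
BIRC5: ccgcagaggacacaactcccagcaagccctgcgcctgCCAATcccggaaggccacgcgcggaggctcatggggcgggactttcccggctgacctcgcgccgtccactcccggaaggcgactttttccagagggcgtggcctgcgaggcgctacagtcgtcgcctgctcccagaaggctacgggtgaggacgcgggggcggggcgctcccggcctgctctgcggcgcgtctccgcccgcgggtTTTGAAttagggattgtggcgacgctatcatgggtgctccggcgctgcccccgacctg
TOP2A: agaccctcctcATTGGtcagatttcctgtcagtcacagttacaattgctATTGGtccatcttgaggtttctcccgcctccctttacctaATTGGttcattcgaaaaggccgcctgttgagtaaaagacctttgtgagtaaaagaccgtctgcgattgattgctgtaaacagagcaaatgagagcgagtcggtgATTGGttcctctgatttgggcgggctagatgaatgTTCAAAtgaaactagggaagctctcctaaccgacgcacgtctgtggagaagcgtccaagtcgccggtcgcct

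Across the groups, neither S phase nor mitosis genes separated the siR-GAL3 from the siR-Con libraries. Summed over the 16 S phase genes, the value was 47.17, 41.19 and 38.94 in siR-Con replicates 1 to 3 and 36.82, 44.12 and 38.42 in siR-GAL3 replicates 1 to 3. The groups overlapped, with a mean of 42.4 ± 4.25 in siR-Con against 39.8 ± 3.84 in siR-GAL3 (SD, n = 3 each). Summed over the 22 G2/M genes, the value was 65.37, 55.76 and 54.90 in siR-Con and 48.17, 70.55 and 54.88 in siR-GAL3. Here the lowest and the highest library both belonged to the siR-GAL3 group, and the means were 58.7 ± 5.81 and 57.9 ± 11.5 (SD, n = 3 each). The 7 G1 genes summed to between 54.27 and 55.03 in siR-Con and to 54.83, 59.59 and 54.81 in siR-GAL3.

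**Figure D2:**
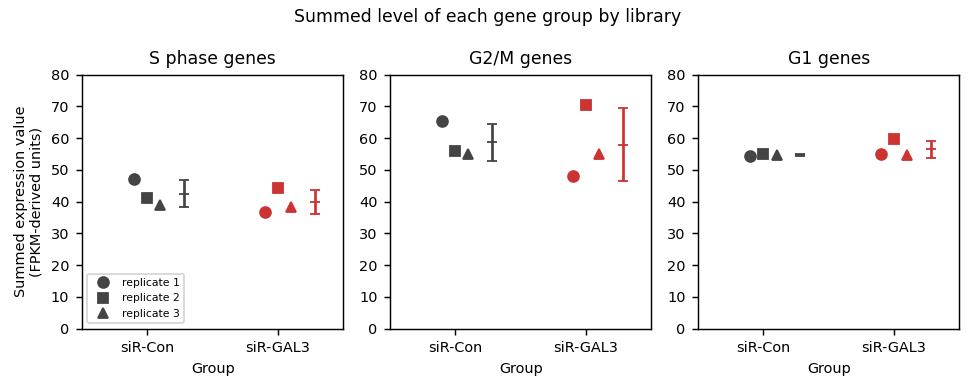
Summed expression value (FPKM-derived units, axis from 0) of the S phase, G2/M and G1 genes in each library, with symbols for replicates 1, 2 and 3 and bars for the mean and SD of each group (n = 3). The G2/M sum has both its lowest value, 48.17 in siR-GAL3 replicate 1, and its highest, 70.55 in siR-GAL3 replicate 2, within the siR-GAL3 group.

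No member passed a Benjamini-Hochberg adjusted p of 0.05 in limma, and 0.0% of the 8495 genes tested did. No member met the criteria of the study (an absolute log2 fold change over 1 with an unadjusted p under 0.05), which 0.318% of all genes met. At an unadjusted p under 0.05 there were 3 of 40 members, TYMS and CCND2 lower and BIRC5 higher in siR-GAL3, against 8.66% of all genes. The groups did not overlap for 6 of 40 members, against 20.5% of all genes, so these shares were not above the background. The 6 were TYMS, RRM1, TOP2A and CCND2, lower in siR-GAL3, and BIRC5 and CDKN1B, higher. The median log2 fold change was -0.05 over the 11 S phase genes tested (8 lower, 3 higher), -0.01 over the 22 G2/M genes (13 lower, 9 higher) and 0.10 over the 7 G1 genes (2 lower, 5 higher), beside a median over all genes of -1.19e-05. Over all genes tested the quartiles were -0.10 and 0.10.

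**Figure D3:**
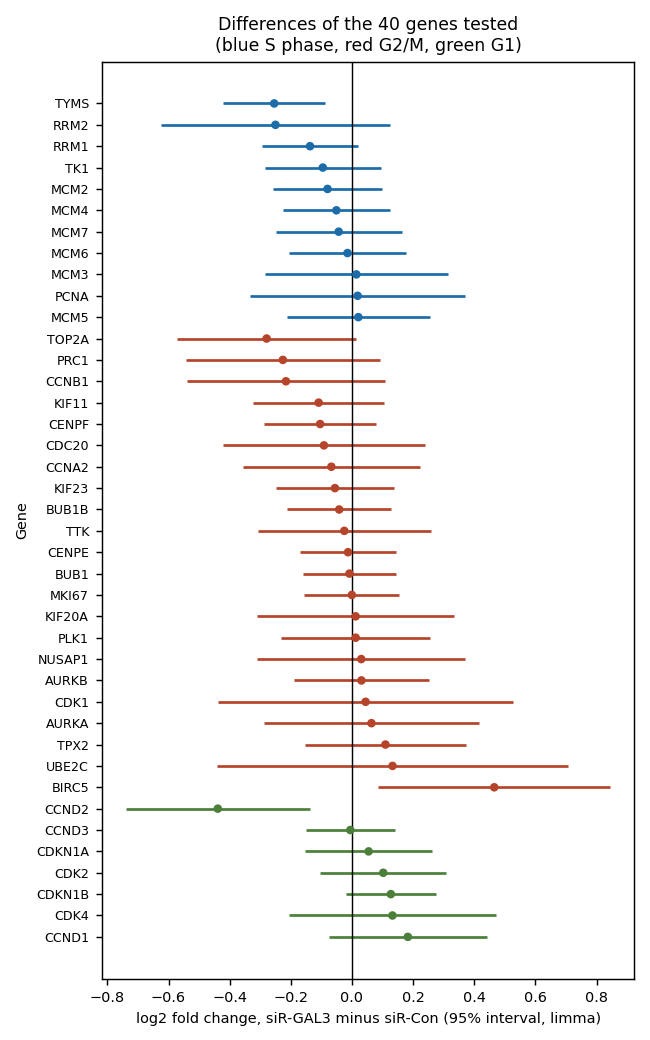
Log2 fold change of siR-GAL3 against siR-Con for the 40 genes tested (horizontal axis, points) with 95% intervals from limma (lines), sorted within the S phase, G2/M and G1 groups. The intervals of TYMS, BIRC5 and CCND2 lie to one side of 0 and those of the other 37 genes include it.

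Of the 11 S phase genes tested, the 4 with the largest differences on the log2(value + 1) scale encode enzymes of deoxynucleotide synthesis, and TYMS alone had an unadjusted p under 0.05. TYMS encodes thymidylate synthase, which makes thymidine monophosphate. It was 2.31, 2.44 and 2.29 in siR-Con replicates 1 to 3 and 2.02, 1.74 and 1.67 in siR-GAL3 replicates 1 to 3. The groups did not overlap (two-sided exact permutation p = 0.1, which no comparison of 3 with 3 can go below). The log2 fold change was -0.25 (95% interval -0.42 to -0.0867, limma unadjusted p = 0.00894, adjusted p = 0.363).

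Ribonucleotide reductase converts ribonucleotides into deoxynucleotides, and its large subunit gene RRM1 was 13.1, 12.1 and 11.96 in siR-Con and 10.9, 11.5 and 11.1 in siR-GAL3. The groups did not overlap (exact permutation p = 0.1), with a log2 fold change of -0.14 (95% interval -0.30 to 0.0210). Its regulated small subunit gene RRM2 was 5.20 in siR-Con replicate 1, 3.21 and 3.17 in the other siR-Con libraries, and 2.79, 3.21 and 3.06 in siR-GAL3. The difference in RRM2 means, 3.86 ± 1.16 against 3.02 ± 0.216 (SD, n = 3 each), rested on siR-Con replicate 1: the log2 fold change was -0.25 with that library and -0.0616 without it. TK1, the thymidine kinase of the salvage pathway, was 1.72, 1.63 and 1.53 in siR-Con and 1.28, 1.70 and 1.41 in siR-GAL3. Its groups overlapped, and the log2 fold change was -0.10 with siR-Con replicate 1 and -0.0689 without it.

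The replicative helicase and the polymerase clamp differed less. The 6 subunit genes MCM2 to MCM7 had log2 fold changes between -0.08 and 0.02, the intervals of all 6 included 0, and each subunit was lower in siR-GAL3 replicate 1 than in siR-Con replicate 1. PCNA, the sliding clamp of the DNA polymerases, was 8.85, 7.55 and 7.03 in siR-Con and 7.18, 10.04 and 6.78 in siR-GAL3. Its highest value was that of siR-GAL3 replicate 2, and the log2 fold change was 0.02 with that library and -0.14 without it.

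Among the G2/M genes, BIRC5 was the one that was higher in each siR-GAL3 library. BIRC5 encodes survivin, a subunit of the chromosomal passenger complex and an inhibitor of apoptosis. It was 2.62, 1.88 and 2.29 in siR-Con replicates 1 to 3 and 2.90, 4.69 and 3.07 in siR-GAL3 replicates 1 to 3. The groups did not overlap (exact permutation p = 0.1), and the highest value again came from siR-GAL3 replicate 2. The log2 fold change was 0.47 (95% interval 0.0862 to 0.84, limma unadjusted p = 0.0230, adjusted p = 0.507), and 0.29 without siR-GAL3 replicate 2. The unadjusted limma p passed 0.05 without siR-Con replicate 2 (0.0816) or siR-Con replicate 3 (0.0540). AURKB, the kinase of the same complex, had a log2 fold change of 0.03 with an interval from -0.19 to 0.25.

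TOP2A, the topoisomerase that untangles sister chromatids, had a difference of the opposite sign, and the printed promoters of both hold CHR and CCAAT matches. It was 6.16, 4.75 and 4.66 in siR-Con and 3.50, 4.64 and 4.13 in siR-GAL3, so the groups were parted by the narrow gap between 4.66 and 4.64. The log2 fold change was -0.28 (95% interval -0.57 to 0.0145). PRC1, which bundles the microtubules of the central spindle, was 5.59, 4.94 and 4.26 in siR-Con and 3.35, 4.91 and 4.01 in siR-GAL3. CCNB1, the cyclin that activates CDK1 at mitotic entry, was 3.72, 2.53 and 2.68 in siR-Con and 2.12, 2.89 and 2.22 in siR-GAL3. For both genes siR-Con replicate 1 was the highest library and siR-GAL3 replicate 1 the lowest, and the groups overlapped.

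CDC20 was 6.47, 4.97 and 4.61 in siR-Con and 4.36, 5.88 and 4.61 in siR-GAL3, with a log2 fold change of -0.09 (95% interval -0.42 to 0.24). TPX2, which activates Aurora A on the spindle, was 4.46, 4.16 and 4.24 in siR-Con and 3.94, 5.63 and 4.67 in siR-GAL3. CDK1 itself and UBE2C, the ubiquitin-conjugating enzyme of the anaphase-promoting complex, showed the widest intervals of this group, -0.44 to 0.53 and -0.44 to 0.71. The proliferation marker MKI67 varied little, from 2.65 to 2.91 in siR-Con and from 2.72 to 2.96 in siR-GAL3. The other G2/M genes, the checkpoint kinases BUB1, BUB1B and TTK, the kinases PLK1 and AURKA, cyclin CCNA2, the kinetochore proteins CENPE and CENPF, the kinesins KIF11, KIF20A and KIF23, and the spindle protein NUSAP1, had log2 fold changes from -0.11 for KIF11 to 0.06 for AURKA.

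Of the G1 genes, CCND2 alone had an unadjusted p under 0.05. CCND2, a D-type cyclin, was 8.04, 8.72 and 8.88 in siR-Con replicates 1 to 3 and 7.02, 4.79 and 6.51 in siR-GAL3 replicates 1 to 3. Its groups did not overlap (exact permutation p = 0.1), and the log2 fold change of -0.44 (95% interval -0.74 to -0.14, limma unadjusted p = 0.0107, adjusted p = 0.389) was -0.30 without siR-GAL3 replicate 2. CCND1, another D-type cyclin, was 1.61, 1.42 and 1.14 in siR-Con and 1.96, 1.38 and 1.80 in siR-GAL3, which overlapped, with a log2 fold change of 0.18 (95% interval -0.0759 to 0.44). CCND3 lay between 2.37 and 2.55 in all 6 libraries.

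The inhibitor CDKN1B (p27), which binds cyclin-CDK complexes in resting cells, was 8.54, 8.87 and 8.64 in siR-Con and 9.35, 9.47 and 9.92 in siR-GAL3. The spread was narrow and the groups did not overlap (exact permutation p = 0.1), with a log2 fold change of 0.13 (95% interval -0.0193 to 0.27, limma unadjusted p = 0.0791). CDKN1A, the inhibitor induced by p53, was 12.9, 11.5 and 13.2 in siR-Con and 14.3, 12.2 and 12.7 in siR-GAL3, which overlapped. CDK4 was 19.0, 20.5 and 18.8 in siR-Con and 18.1, 27.1 and 19.9 in siR-GAL3, and CDK2 was 1.57, 1.54 and 1.72 in siR-Con and 1.65, 2.15 and 1.64 in siR-GAL3. Both kinases had their highest value in siR-GAL3 replicate 2.

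**Figure D4:**
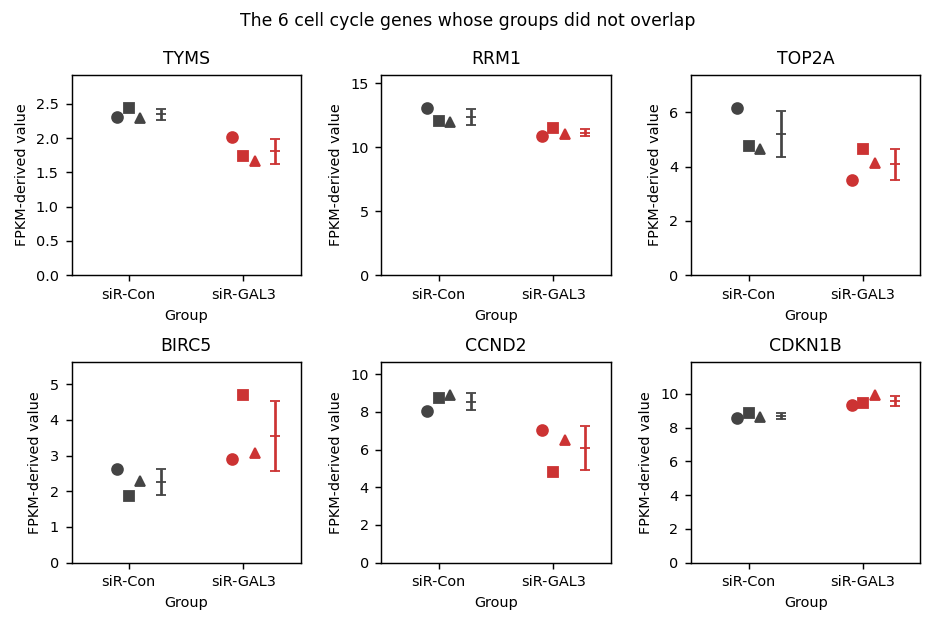
FPKM-derived values (vertical axes from 0) of the 6 cell cycle genes whose groups did not overlap, with symbols for replicates 1 (circle), 2 (square) and 3 (triangle) and bars for the group mean and SD (n = 3). TYMS, RRM1, TOP2A and CCND2 are lower in each siR-GAL3 library, and BIRC5 and CDKN1B are higher.

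Single libraries held the extreme values of most G2/M genes. siR-GAL3 replicate 1 was the lowest of the 6 libraries for 18 of 22 G2/M genes and 6 of 11 S phase genes tested, against 13.4% of all genes tested. siR-Con replicate 1 was the highest siR-Con library for 20 of 22 G2/M genes and 10 of 11 S phase genes tested, against 38.1% of all genes tested. siR-GAL3 replicate 2 was the highest of all libraries for 13 of 22 G2/M genes and 3 of 11 S phase genes tested. With the S phase genes that were not tested included, that library was the highest for 8 of 16. It was the highest for 41.5% and the lowest for 35.1% of all genes tested, so that library was at an extreme for most genes. It was the lowest library for none of the S phase or G2/M genes tested. CDK1, a G2/M gene, was 3.24, 2.61 and 2.88 in siR-Con replicates 1 to 3 and 2.15, 4.60 and 2.69 in siR-GAL3 replicates 1 to 3.

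**Figure D5:**
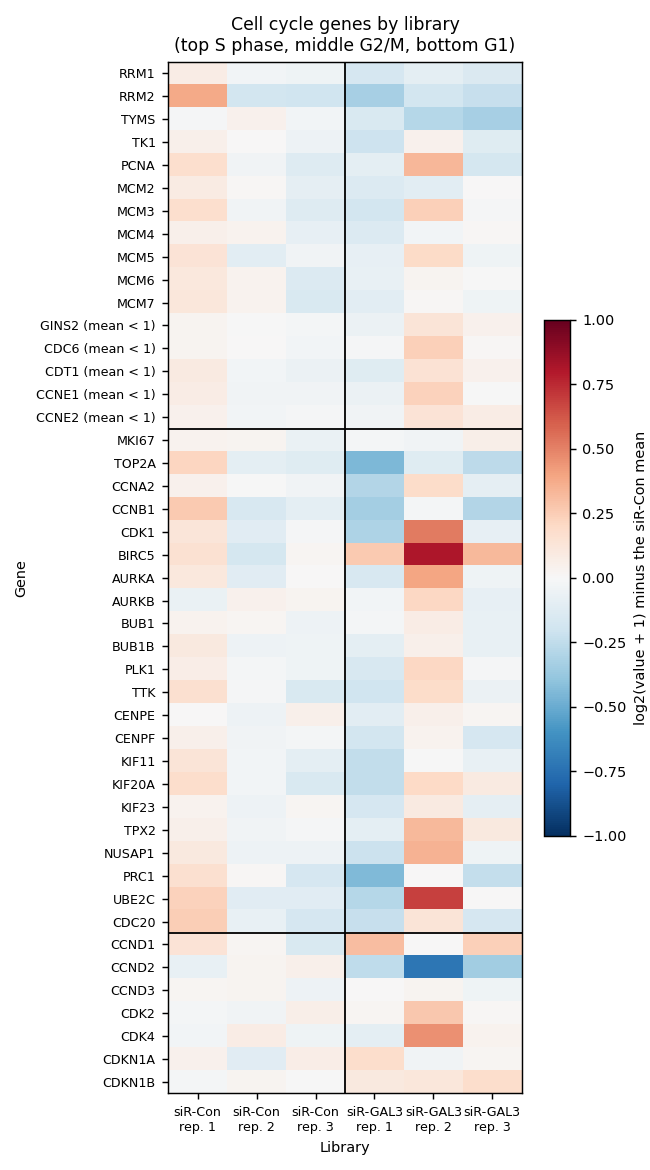
Level of each of the 45 genes (rows) in each library (columns) as log2(value + 1) minus its siR-Con mean, with red above and blue below that mean, and lines between the S phase, G2/M and G1 genes and between the groups. siR-GAL3 replicate 1 is blue for most S phase and G2/M genes, and CCND2 is blue in all 3 siR-GAL3 libraries. siR-GAL3 replicate 2 is red for 18 of the 22 G2/M genes, where it lay above the siR-Con mean for 53.2% of all genes tested.

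The comparison within library sets, which were found from the values, divided the same genes. Within set 1, all 16 S phase genes, 11 of them tested, and 20 of 22 G2/M genes were lower in siR-GAL3 replicate 1 than in siR-Con replicate 1. Of all genes tested 52.9% were lower there. The exceptions among the G2/M genes were BIRC5 and AURKB. The median difference there was -0.22 on the log2 scale for S phase and -0.29 for G2/M genes. Within set 2, siR-GAL3 replicate 3 against the mean of siR-Con replicates 2 and 3 gave medians of 0.02 and -0.02, with 6 of 11 S phase and 10 of 22 G2/M genes tested higher. In summed value, siR-GAL3 differed by -21.9% (S phase) and -26.3% (G2/M) within set 1, and by -4.11% and -0.813% within set 2. siR-GAL3 replicate 2, with no control in its set, stood 3.97% above the siR-Con mean for S phase and 20.2% above it for G2/M genes.

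TYMS and CCND2 were lower, and BIRC5 and CDKN1B higher, within both sets. The groups of these genes, and of RRM1 and TOP2A, did not overlap. That fixes the direction within each set, so the direction is no separate check. The within-set differences on the log2 scale were -0.13 and -0.34 for TYMS, -0.17 and -0.38 for CCND2, 0.11 and 0.40 for BIRC5 and 0.12 and 0.16 for CDKN1B. RRM1 and TOP2A were also lower in both, at -0.24 and -0.11 for RRM1 and -0.67 and -0.15 for TOP2A. Microglial, astrocyte and fibroblast marker sums did not overlap between the groups, as given above, and their part in these differences was not tested. For the astrocyte markers the sum hides a mixed direction, since 6 of the 10 tested were higher within set 1.

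The number of members past an unadjusted p of 0.05 depended on siR-GAL3 replicate 2. Without it, 13 of 40 members were past this threshold in limma, 10 lower and 3 higher, where 16.3% of all genes were, so the members' share was the higher one, which was not tested. With the library set as a block, which also leaves that library without weight in the comparison, there were 13, again 10 lower and 3 higher, where 13.8% of all genes were, and 12 genes were in both. These 12 were RRM1, TYMS and TK1 of the S phase genes, TOP2A, CCNA2, CCNB1, CENPF, PRC1 and BIRC5 of the G2/M genes, and CCND1, CCND2 and CDKN1B. No member had an adjusted p under 0.05 in any of 15 alternative fits, and the smallest was 0.0533, for CCND2 without siR-GAL3 replicate 2. Both fits lower the number of libraries compared and are not separate checks.

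Set against each other, the mitotic and the S phase genes kept a similar ratio in most libraries. The summed G2/M value divided by the summed S phase value was 1.39, 1.35 and 1.41 in siR-Con replicates 1 to 3 and 1.31, 1.60 and 1.43 in siR-GAL3 replicates 1 to 3. The ratio of siR-GAL3 replicate 2 was the highest, and that of siR-GAL3 replicate 1 the lowest, so the spread within the siR-GAL3 group spanned all siR-Con values.

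Other genes of the cell cycle were read from lists. Of 44 further genes of DNA replication, 19 had a mean of at least 1, 4 of them lower and 15 higher in siR-GAL3. Their median log2 fold change was 0.06, where that of the S phase members was -0.05, and none had an unadjusted p under 0.05. siR-GAL3 replicate 2 was the highest library for 15 of these 19, against 41.5% of all genes tested. The 2 genes with the smallest p were RFC3 and RFC4, subunits of the clamp loader, with log2 fold changes of 0.24 and 0.18. RFC3 was 1.23, 1.08 and 1.12 in siR-Con and 1.26, 1.97 and 1.40 in siR-GAL3, which did not overlap. The groups did not overlap for 3 of the 19, a share not above the 20.5% of all genes.

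Of 54 further genes of mitosis, 37 were tested, 18 higher and 19 lower, with a median log2 fold change of -0.000545. siR-GAL3 replicate 1 was the lowest library for 24 of these 37, against 13.4% of all genes tested. At an unadjusted limma p under 0.05 there were 2 of the 37, ASPM and FOXM1, both lower. That share was not above the 8.66% of all genes. ASPM, a spindle pole protein, was 1.47, 1.32 and 1.33 in siR-Con and 1.06, 1.10 and 1.04 in siR-GAL3 (log2 fold change -0.20, limma adjusted p = 0.379). FOXM1, the transcription factor of the G2/M program, was 1.63, 1.22 and 1.25 in siR-Con and 1.08, 1.06 and 1.06 in siR-GAL3 (log2 fold change -0.19, limma adjusted p = 0.570). Unlike most mitotic genes, neither was highest in siR-GAL3 replicate 2.

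Of 21 symbols for pocket proteins, E2F factors, MuvB subunits, CDK6, further CDK inhibitors and G-type cyclins, 14 were tested, 6 higher and 8 lower, with a median of -0.01. CCNG1, a cyclin induced by p53, was 20.4, 19.9 and 20.4 in siR-Con and 18.0, 16.5 and 16.0 in siR-GAL3 (log2 fold change -0.25, limma adjusted p = 0.357). It was the only gene of the 14 with an unadjusted limma p under 0.05, a share not above the 8.66% of all genes. CDKN1C (p57) was 6.88, 6.66 and 6.47 in siR-Con and 6.93, 10.05 and 7.30 in siR-GAL3, which did not overlap. The groups did not overlap for 2 of the 14, a share not above the 20.5% of all genes. Of 25 symbols for the p53 response, the program that DNA damage induces, 14 were tested, 8 higher and 6 lower, with a median of 0.0054 and no unadjusted p under 0.05. The 2 with the smallest p in that list were AEN and PHLDA3, a nuclease and an AKT inhibitor, with log2 fold changes of -0.12 and 0.14.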

How the data were processed

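RNA of 6 libraries (3 Glu + siR-Con, 3 Glu + siR-GAL3) was quantified by the authors with STAR and HTSeq and turned into FPKM. Batch removal, standardization and a correction within groups followed, with tools not named and a genome build not given in the sources used here. The deposited values were treated as an expression score on a linear scale, since values below 0 occur and FPKM has none. The unit assumed at the design stage was FPKM. Values below 0 were set to 0 and log2(value + 1) was taken. A mean of 1 or more was required, and the 8495 genes left were fitted with limma 3.58.1 (R 4.3.3, intensity trend), and Benjamini-Hochberg adjustment ran over all of them. Adding 1 shrinks the fold changes of low genes. Single genes were also compared with exact two-sided permutation tests (Python 3.11.15). The limma model was also run on simulated independent normal values, without library sets or a library that stood apart. The members and lists were chosen with earlier results of these data known, so lists are described by counts and medians without a test. The genes given by library are the 4 with the smallest p and the 3 most abundant of each member group, and other members are named with ranges. MKI67, CDK1 and CCND3 were added after their values were seen. Libraries that share more than 500 exactly equal values other than 0 were placed in one set. Deviations from the group mean had correlations of -0.17, -0.0699 and 0.0441 between libraries with the same replicate number, over the genes tested. With 3 libraries per group such deviations are tied to each other, and siR-GAL3 replicate 2 stood apart. These correlations therefore cannot show whether the replicate numbers pair the libraries. The alternatives were other pseudocounts, filters and scalings, no trend, replicate and library set blocks and each library left out. Motifs were searched in RefSeq promoters matched by symbol. One of the marker lists is not reported here.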

Additional observations from a re-analysis of the deposited data

How the results depend on the processing

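The count of all genes meeting the study criteria, 27, was 6 among genes with a mean of at least 5 and 15 when genes with a value below 0 were left out, and lay between 22 and 29 with each library left out. The count with an adjusted p under 0.05, which was 0, became 6 with the replicate block and 106 with the library set block, and lay between 0 and 167 with each library left out. The count with an unadjusted p under 0.05, 736, was 1623 without a filter, 260 at a mean of at least 5 and 1174 with the library set block, and lay between 344 and 1388 with each library left out. The cause of these shifts was not tested. For the members, the 3 genes with an unadjusted p under 0.05 became 5 without a filter (RRM1 and CDKN1B besides), 1 at a mean of at least 5, where fewer genes were tested, and 13 with the library set block, and lay between 2 (BIRC5 lost without siR-Con replicate 2 or 3) and 13 with each library left out. With the replicate number as a block there were 3, and no member call at this threshold changed. Whether the replicate numbers pair the libraries is not known.

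The median log2 fold changes of the S phase, G2/M and G1 genes moved by less than the spread between libraries under every alternative. With each library left out they lay between -0.12 and -0.0131, -0.13 and 0.04, and 0.0175 and 0.12. Of the 17 members given by library, 13 kept their direction under every alternative run. PCNA turned to -0.17 and CDK4 to -0.0186 on the log2 scale with the library set block. With each library left out, PCNA lay between -0.14 and 0.11, CDC20 between -0.20 and 0.0312, CDK4 between -0.0314 and 0.25 and CDKN1A between -0.00635 and 0.0995. LGALS3 stayed lower throughout, between -3.88 and -1.35 with each library left out. The number of libraries and the unknown depth limit what the spread can show.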
